A study of Mus musculus with 4 samples.

Results

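The nuclear genes for the subunits of the 5 complexes of oxidative phosphorylation were followed in RNA from lamina propria mononuclear cells, the leukocyte-rich fraction of the connective tissue under the gut epithelium. Members were taken by gene symbol: the Nduf genes of complex I, Sdha to Sdhd of complex II, the Uqcr genes of complex III, the Cox4 to Cox8 genes of complex IV, the Atp5 genes of complex V, and Cycs for cytochrome c, with symbols ending in -ps left out. The rule found 89 genes among 48526 identifiers, of which 81 had a mean expression high enough to be tested. Messenger RNA libraries were sequenced from 4 mouse samples that differ in the CD4 T cells transferred into the animals. In the 2 DKO samples the transferred cells were double knockout for Hobit and Blimp, which are related repressors of transcription known from lymphocytes that stay in tissues. The labels record mild colitis for these samples. The 2 WT samples followed a transfer of wild-type cells and are recorded with pronounced colitis. The names DKO and WT refer to the transferred cells, not to every cell sampled, and all 4 samples come from recipients of a CD4 cell transfer. No strain, age or sex of the animals is given in the labels. The comparison asks how the cells of the lamina propria differ when the transferred CD4 cells lack both regulators. The transferred genotype and the recorded degree of colitis coincide in these samples, so the parts of each cannot be told apart.

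The respiratory chain sits in the inner mitochondrial membrane. Complex I takes electrons from NADH and complex II from succinate, ubiquinone carries them to complex III, cytochrome c carries them on to complex IV, and complex IV passes them to oxygen. Complexes I, III and IV pump protons, and complex V, the ATP synthase, uses the returning protons to make ATP. A few of the catalytic subunits are encoded in mitochondrial DNA, while the genes described here lie on the nuclear chromosomes. Some subunits of complex IV exist in alternative forms, with 1 gene used broadly and another in muscle, lung or testis.

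All values are rlog, the regularized log2 expression deposited by the authors, a scale on which the differences of weakly expressed genes are shrunk. Differences are DKO minus WT on that scale, so that a negative difference means a lower level in DKO samples. The number of reads behind each value is unknown. A gene was called when its adjusted p in limma, over all 13528 tested genes, was under 0.05. The replicates are described as biological, with nothing on whether each is a separate animal, so the p-values reflect the variation among these 4 samples and may not cover that between mice. Sample medians of rlog over all tested genes were close together, from 8.33 to 8.35. The 4 general leukocyte markers were present, and 1 of them fell (log2 of the summed level 15.6 and 15.6 in DKO samples, against 15.9 and 15.9 in WT samples). The 5 B and plasma cell markers were all below the level tested, while markers of fibroblasts, smooth muscle, endothelium and epithelium were present. In such bulk samples, fewer cells of a type and less RNA per cell cannot be told apart.

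Transcripts of the subunits were slightly lower in DKO samples than in WT samples in all 5 complexes, although with quantile normalization the median of complex II was near 0 (-0.003). Of the 81 tested genes, 76 had a lower mean in DKO samples (93.8%, against 55.3% of all tested genes). Their median difference was -0.178, a level 11.6% lower, against a median of -0.0219 over all tested genes. Few of these small differences passed the test for single genes. In limma, 8 members fell (9.88%, where 4.85% of all tested genes fell) and 2 rose (2.47%, where 9.92% of all tested genes rose). The genes that fell were Ndufa2, Ndufa6, Ndufb3 and Ndufc2 of complex I, Uqcrq of complex III, Cox5a and Cox7a2l of complex IV and Atp5mpl of complex V. The genes that rose were Cox6b2 and Cox4i2, both tissue-restricted forms of complex IV subunits. The median difference was -0.183 in complex I, -0.0778 in complex II, -0.165 in complex III, -0.19 in complex IV and -0.122 in complex V. The calls depended on single samples: without WT replicate 2, 0 members fell in limma (3 had an unadjusted p under 0.05, and 2.40% of all tested genes fell), although the 8 genes still had differences from -0.269 for Ndufa2 to -0.193 for Uqcrq. Without DKO replicate 2 the number that fell was 24 (9.03% of all tested genes), without DKO replicate 1 it was 5 (5.46%), and without WT replicate 1 it was 7 (3.11%). The median over the subunits was -0.117 without WT replicate 2 and -0.228 without WT replicate 1. That of complex V was -0.06 without WT replicate 2 and -0.197 without WT replicate 1, and that of complex II was -0.025 without DKO replicate 1, with 2 of 4 genes below 0, and -0.141 without DKO replicate 2.

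**Figure D1:**
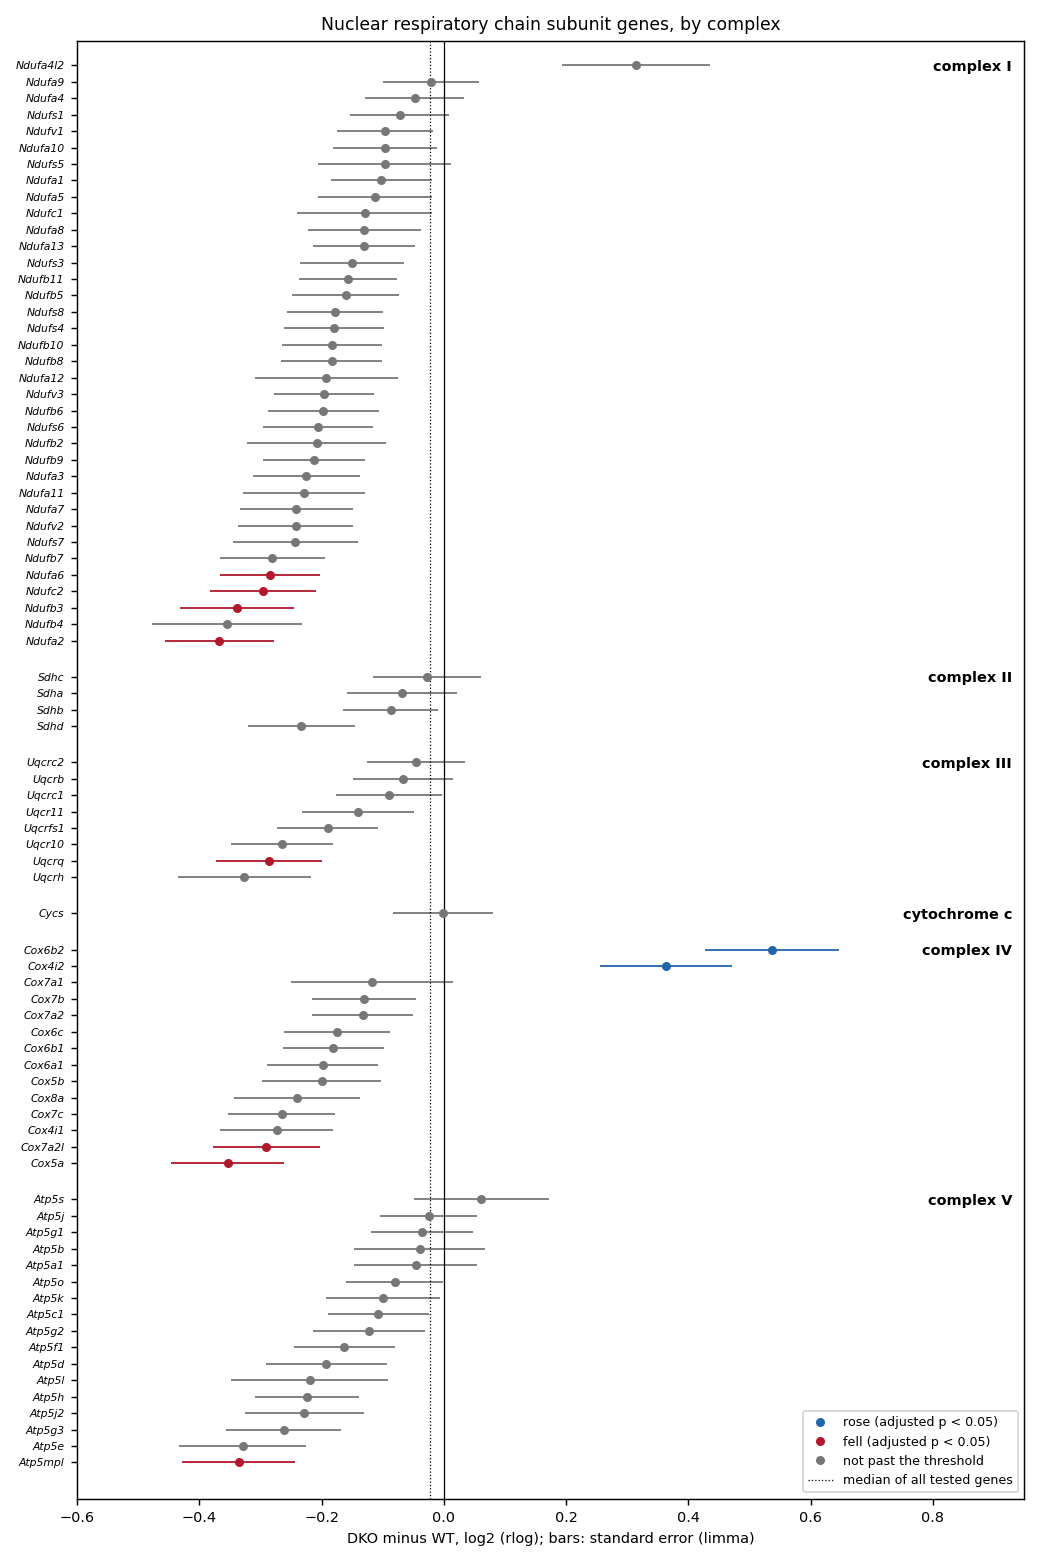
Difference of the tested subunit genes reported here between DKO and WT samples (DKO minus WT, rlog scale), by complex, with called genes in colour, bars for the SE of limma and a dotted line at the median of all tested genes. Most points lie a little below 0 in each complex, 8 genes fell, and Cox6b2 and Cox4i2 of complex IV stand above 0.

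The order of the samples was much the same from gene to gene. Both DKO samples lay below both WT samples in 55 of the 81 genes, where 30.3% of all tested genes did so. Both DKO samples lay above both WT samples in 5, where the share of all tested genes was 25.0%, and in 21 the groups overlapped. DKO replicate 1 was the lowest sample in 51 genes (63.0%, against 33.0% of all tested genes), and WT replicate 2 was the highest in 68 (84.0%, against 27.8%). The median deviation from a gene's own mean was -0.112 in DKO replicate 1 and -0.0535 in DKO replicate 2, against 0.0189 in WT replicate 1 and 0.143 in WT replicate 2. Thus the distance between WT replicate 2 and WT replicate 1 was larger than the distance between WT replicate 1 and DKO replicate 2. Of the 5 genes above 0, 4 (Cox6b2, Cox4i2, Ndufa4l2 and Atp5s) were among the 6 tested members with a mean under 6.

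**Figure D2:**
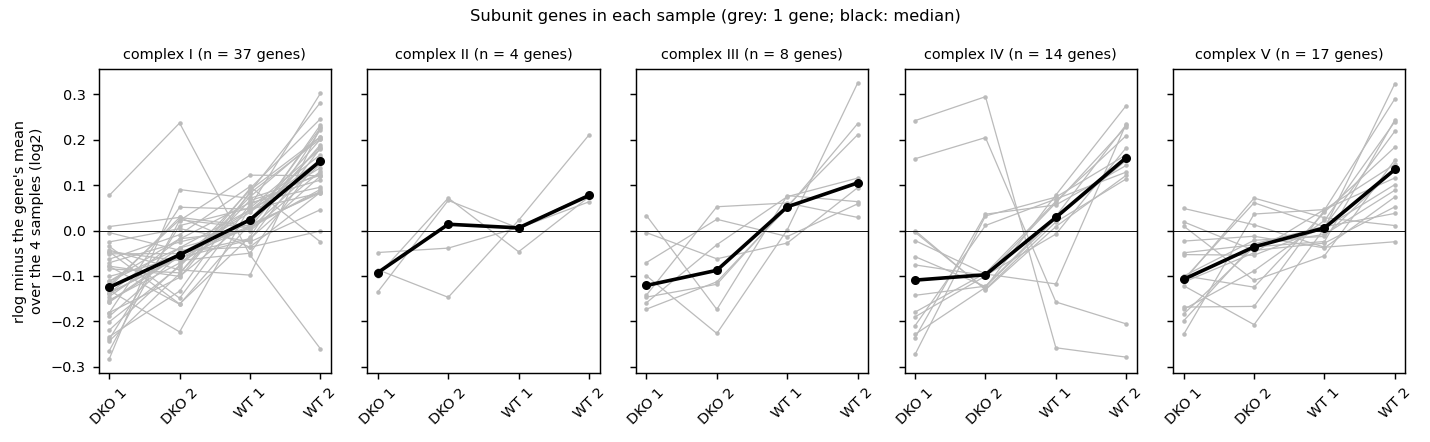
Deviation of each tested subunit gene from its own mean over the 4 samples (rlog scale), by sample. WT replicate 2 stands highest (median 0.143) and DKO replicate 1 lowest (median -0.112), with DKO replicate 2 and WT replicate 1 between them.

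Complex I, the NADH dehydrogenase, had 40 genes, 37 of them tested, and 4 fell (10.8%) while 0 rose. Of all tested genes, 4.85% fell and 9.92% rose. Ndufa2, an accessory subunit near the site of NADH oxidation, had 10.02 and 10.12 in DKO samples, against 10.34 and 10.53 in WT samples (difference -0.37, SE 0.0896, adjusted p = 0.0173). The gene lies at chr18:36742332-36744557, and 11.5% of its exonic bases overlap exons of Tmco6 on the other strand, which itself fell (-0.42, adjusted p = 0.016). Ndufb3, an accessory subunit of the membrane arm at chr1:58586384-58595964, had 8.85 and 8.99 in DKO samples, against 9.18 and 9.33 in WT samples (-0.34, SE 0.0939, adjusted p = 0.0329). Ndufa6, an accessory subunit of the matrix arm at chr15:82350140-82354322, had 10.43 and 10.51 in DKO samples, against 10.69 and 10.81 in WT samples (-0.28, SE 0.0817, adjusted p = 0.0389). Ndufc2, a further membrane arm subunit at chr7:97400003-97407802, had 9.56 and 9.70 in DKO samples, against 9.87 and 9.98 in WT samples (-0.30, SE 0.0871, adjusted p = 0.0434). In all 4 genes the groups did not overlap, where 30.3% of all tested genes had both DKO samples below both WT samples. The 4 were called on these same values, so this adds nothing to the calls. WT replicate 2 was the highest sample in each, as in 84.0% of the tested subunit genes. Ndufb7, of the membrane arm, came next with a difference of -0.28 (adjusted p = 0.0502) and was not called. Ndufb4, also of the membrane arm, had a difference as large as the called genes (6.35 and 6.26 in DKO samples, against 6.54 and 6.79 in WT samples, difference -0.35) but did not pass (adjusted p = 0.0812).

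The accessory subunits of complex I, which surround the catalytic core, held all 4 of the calls. Of 30 tested, 29 had a lower mean in DKO samples (against 55.3% of all tested genes), with a median of -0.188. In 21 both DKO samples lay below both WT samples, where 30.3% of all tested genes did so. The exception was Ndufa4l2, described with the alternative forms. The 7 nuclear core subunits, which include those that carry the flavin and the iron-sulfur clusters, had a median of -0.15. In limma 0 of them were called, and 3 had an unadjusted p under 0.05. Whether core and accessory subunits differ was not tested. Ndufv1, which binds NADH, had 10.21 and 10.26 in DKO samples, against 10.29 and 10.36 in WT samples (-0.10, adjusted p = 0.49). Its neighbour in electron entry, Ndufv2, had 10.45 and 10.59 in DKO samples, against 10.65 and 10.88 in WT samples (-0.24, adjusted p = 0.121). Ndufs1, the largest iron-sulfur subunit, had 10.19 and 10.24 in DKO samples, against 10.35 and 10.23 in WT samples (-0.072, adjusted p = 0.639). In Ndufv1 and Ndufv2 the groups did not overlap, whereas in Ndufs1 WT replicate 2 lay below DKO replicate 2. Ndufs7, next to the ubiquinone site, had 8.92 and 9.21 in DKO samples, against 9.31 and 9.31 in WT samples (-0.24, adjusted p = 0.153). Ndufs8, an iron-sulfur subunit on the way to that site, had 9.65 and 9.64 in DKO samples, against 9.80 and 9.85 in WT samples (-0.18, adjusted p = 0.176). Ndufs3, of the same arm, had 9.56 and 9.63 in DKO samples, against 9.67 and 9.82 in WT samples (-0.15, adjusted p = 0.301). Each of these 3 genes was lower in both DKO samples than in both WT samples, but none was called.

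Complex II, succinate dehydrogenase, is also an enzyme of the citric acid cycle and is encoded in the nucleus alone. Of its 4 genes 0 were called in limma (1 had an unadjusted p under 0.05), and all 4 means were lower in DKO samples, which held for 2 of 4 with quantile normalization. Sdha, the flavoprotein that oxidises succinate, had 11.42 and 11.63 in DKO samples, against 11.56 and 11.62 in WT samples (-0.069, adjusted p = 0.696). Sdhb, the iron-sulfur subunit, had 10.78 and 10.79 in DKO samples, against 10.84 and 10.91 in WT samples (-0.087, adjusted p = 0.533). For Sdha the groups overlapped, and for Sdhb they were apart by a small step. The membrane anchor Sdhc had 9.99 and 10.16 in DKO samples, against 10.04 and 10.16 in WT samples (-0.027, adjusted p = 0.892). The other anchor, Sdhd, had 11.01 and 10.95 in DKO samples, against 11.12 and 11.31 in WT samples (-0.23, adjusted p = 0.107), the largest difference of the complex. Sdhd did not overlap between groups, whereas Sdhc did.

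Complex III, the cytochrome bc1 complex, had 8 genes, all tested and all below 0, of which 1 fell (12.5%, against 4.85% of all tested genes). That gene was Uqcrq, a small ubiquinone-binding subunit at chr11:53427922-53430831, with 10.43 and 10.49 in DKO samples, against 10.66 and 10.84 in WT samples (-0.29, SE 0.0864, adjusted p = 0.0485). Uqcrh, the hinge protein beside cytochrome c1, had the largest difference, -0.33, but its WT replicates were far apart (11.95 and 11.82 in DKO samples, against 12.05 and 12.37 in WT samples) and it was not called (adjusted p = 0.0744). Uqcr10, another small subunit, had 10.29 and 10.32 in DKO samples, against 10.49 and 10.65 in WT samples (-0.27, adjusted p = 0.0567). These 3 small subunits were among the 5 genes of the complex lower in both DKO samples than in both WT samples. Of all tested genes, 30.3% were so. Uqcrfs1, the Rieske iron-sulfur protein, had 11.21 and 11.34 in DKO samples, against 11.45 and 11.49 in WT samples (-0.19, adjusted p = 0.167). The core proteins, which face the matrix, had smaller differences: Uqcrc1 had 11.06 and 11.26 in DKO samples, against 11.27 and 11.23 in WT samples (-0.090, adjusted p = 0.577). Uqcrc2 had 11.17 and 11.27 in DKO samples, against 11.23 and 11.30 in WT samples (-0.046, adjusted p = 0.788). Both core proteins overlapped between groups. Cycs, which encodes the mobile carrier cytochrome c, had 9.70 and 9.60 in DKO samples, against 9.63 and 9.67 in WT samples, with a difference near 0 (-0.0013, adjusted p = 0.995).

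Complex IV, cytochrome c oxidase, had 19 genes, 14 of them tested, with 2 that fell and 2 that rose (14.3% each). Among all tested genes, 4.85% fell and 9.92% rose. Cox5a, a matrix-side subunit at chr9:57521274-57532426, had 11.60 and 11.71 in DKO samples, against 11.91 and 12.11 in WT samples (-0.35, SE 0.0923, adjusted p = 0.0245). Cox7a2l, which joins complexes III and IV into supercomplexes, lies at chr17:83501918-83517330 and had 11.21 and 11.30 in DKO samples, against 11.46 and 11.63 in WT samples (-0.29, SE 0.0873, adjusted p = 0.0473). Both genes were lowest in DKO replicate 1 and highest in WT replicate 2, as were 63.0% and 84.0% of the tested subunit genes, respectively. Cox5b, a zinc-binding subunit, had 10.83 and 11.10 in DKO samples, against 11.12 and 11.20 in WT samples (-0.20, adjusted p = 0.225). Cox7c, a small membrane subunit, had 10.10 and 10.12 in DKO samples, against 10.27 and 10.48 in WT samples (-0.27, adjusted p = 0.0704). Neither passed, although in both the groups were apart. In all, both DKO samples lay below both WT samples in 11 of the 14 genes, where 30.3% of all tested genes did so.

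Both complex IV genes that rose encode alternative forms of a subunit, and the broadly used forms of the same subunits were lower in DKO samples without passing the test. Cox6b2, known as the testis form of a subunit on the cytochrome c side, had 5.27 and 5.32 in DKO samples, against 4.77 and 4.75 in WT samples. Both DKO samples were above both WT samples by about 0.5, and the gene rose by 0.54 (SE 0.11, adjusted p = 0.00643), a 1.45-fold difference. Its broadly used counterpart Cox6b1 had 11.14 and 11.08 in DKO samples, against 11.23 and 11.36 in WT samples (-0.18, adjusted p = 0.192) and was by far the more abundant, at 12.2 against 6.23 for Cox6b2 in mean rlog per kilobase of transcript on the log2 scale. Cox4i2, known as the lung form of the subunit that binds ATP, had 4.35 and 4.40 in DKO samples, against 4.04 and 3.99 in WT samples and rose by 0.36 (SE 0.108, adjusted p = 0.0461), a 1.29-fold difference. Its mean of 4.19 stands just above the level of 4 needed for a test, and the call was lost with no such minimum (adjusted p = 0.117), with median centring (0.0544) and with quantile normalization (0.151). It was also lost without DKO replicate 2 (0.0678), without WT replicate 1 (0.15) and without WT replicate 2 (0.267). The broadly used Cox4i1 had 12.41 and 12.50 in DKO samples, against 12.65 and 12.80 in WT samples (-0.27, adjusted p = 0.0752), the opposite direction. Cox6b2 kept its call in every fit except the one with no minimum (adjusted p = 0.0728), and had no test at a minimum of 6.

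**Figure D3:**
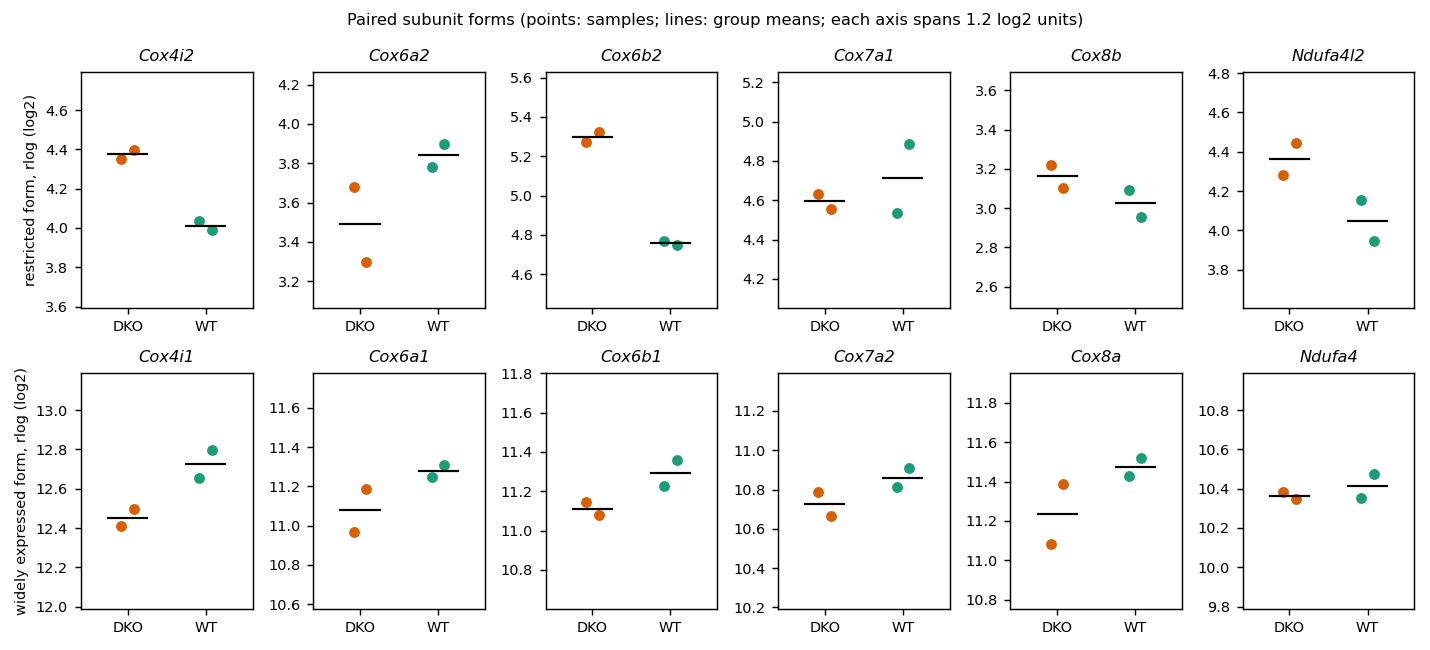
Rlog of broadly used and alternative forms of subunits (log2 units) in DKO and WT samples, with points for samples and lines for group means. Each axis spans the same length and does not start at 0. Cox6b2 and Cox4i2 are higher in both DKO samples than in both WT samples, while Cox6b1 and Cox4i1 are lower in both DKO samples.

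Ndufa4l2, the alternative form of Ndufa4 and known as a gene induced by low oxygen, had 4.28 and 4.44 in DKO samples, against 4.15 and 3.95 in WT samples, so that both DKO samples were above both WT samples, but it was not called (0.31, adjusted p = 0.119). Ndufa4 itself, which is named for complex I but has been assigned to complex IV, had 10.38 and 10.35 in DKO samples, against 10.35 and 10.47 in WT samples (-0.048, adjusted p = 0.774). Among forms known from heart and skeletal muscle, Cox7a1 had 4.63 and 4.56 in DKO samples, against 4.54 and 4.89 in WT samples (-0.12, adjusted p = 0.642), with overlap between the groups. Its counterpart Cox7a2 had 10.79 and 10.66 in DKO samples, against 10.81 and 10.91 in WT samples (-0.13, adjusted p = 0.353). The muscle forms Cox6a2 (3.68 and 3.30 in DKO samples, against 3.78 and 3.90 in WT samples) and Cox8b (3.22 and 3.10 in DKO samples, against 3.09 and 2.96 in WT samples) were too low to test, and the testis forms Cox7b2 and Cox8c were listed at 0 in all 4 samples. The broadly used forms Cox6a1 (-0.20, adjusted p = 0.193), Cox7b (-0.13, adjusted p = 0.37) and Cox8a (-0.24, adjusted p = 0.162) were each slightly lower in DKO samples and not called.

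Cox4i2 and Ndufa4l2 are known from pericytes and smooth muscle, and markers of both cell types rose. All 6 pericyte markers rose (log2 of the summed level 11.8 and 11.7 in DKO samples, against 10.9 and 10.3 in WT samples). All 6 smooth muscle markers also rose (13.9 and 14.3 in DKO samples, against 13.1 and 12.2 in WT samples). Of 9 genes of the response to low oxygen, 0 rose and 3 fell, where 9.92% of all tested genes rose and 4.85% fell. The 3 were Slc2a1, a glucose transporter (-0.54, adjusted p = 0.00152), Bnip3, a mitophagy receptor (-0.60, adjusted p = 0.00246), and Vegfa, an endothelial growth factor (-0.46, adjusted p = 0.0129). The part of these cell types and of oxygen in the isoform differences was not tested.

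The promoters of Cox6b2 and Cox6b1 are shown because these genes encode forms of the same subunit and had differences of opposite sign. Each run holds the 250 bases before the start of transcription in RefSeq (build GRCm38.p6), 5′ to 3′ on the gene's own strand, which is minus for both. Cox6b2 covers chr7:4753095-4753344 and Cox6b1 covers chr7:30626115-30626364. Capitals mark CCAAT boxes (CCAAT) and ETS motifs (CCGGAAG), found on either strand.
Cox6b2: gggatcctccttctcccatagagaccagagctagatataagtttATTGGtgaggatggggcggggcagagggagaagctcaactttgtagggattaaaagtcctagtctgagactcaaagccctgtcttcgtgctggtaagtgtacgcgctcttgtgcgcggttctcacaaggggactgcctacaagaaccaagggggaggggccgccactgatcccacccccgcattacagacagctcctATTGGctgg
Cox6b1: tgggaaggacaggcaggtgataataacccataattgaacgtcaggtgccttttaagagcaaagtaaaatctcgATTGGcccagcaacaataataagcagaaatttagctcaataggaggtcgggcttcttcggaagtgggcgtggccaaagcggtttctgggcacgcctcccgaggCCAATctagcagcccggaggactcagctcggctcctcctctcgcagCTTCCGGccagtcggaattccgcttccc
Both hold CCAAT boxes, and the ETS motif stands in the window of Cox6b1 and not in that of Cox6b2.

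Complex V, the ATP synthase, had 17 genes, all tested, of which 16 had a lower mean in DKO samples, 1 fell and 0 rose. The share that fell (5.88%) was close to that of all tested genes (4.85%), of which 9.92% rose. Atp5mpl, a small membrane protein of the complex at chr12:111961375-111966977, had 10.27 and 10.27 in DKO samples, against 10.48 and 10.73 in WT samples (-0.34, SE 0.0922, adjusted p = 0.0316). Its DKO samples were level with each other, and the WT samples were higher by different amounts. Atp5e, the epsilon subunit of the rotor stalk, had 10.95 and 10.86 in DKO samples, against 11.07 and 11.39 in WT samples (-0.33, adjusted p = 0.0584) and was not called. Differences were small in the catalytic head. Atp5a1, the alpha subunit, had 13.32 and 13.48 in DKO samples, against 13.43 and 13.46 in WT samples (-0.046, adjusted p = 0.831). Atp5b, the catalytic beta subunit, had 13.67 and 13.85 in DKO samples, against 13.81 and 13.79 in WT samples (-0.039, adjusted p = 0.868). In both genes DKO replicate 2 was the highest of the 4 samples. Subunit c, which forms the rotating ring in the membrane, has 3 genes for 1 protein. Atp5g3 had 11.71 and 11.79 in DKO samples, against 11.90 and 12.12 in WT samples (-0.26, adjusted p = 0.0936). Atp5g2 had 8.74 and 8.82 in DKO samples, against 8.83 and 8.97 in WT samples (-0.12, adjusted p = 0.451), and its transcript is matched by near-identical copies in other genes over its whole length. Atp5g1 had 9.40 and 9.41 in DKO samples, against 9.39 and 9.50 in WT samples (-0.036, adjusted p = 0.842). None of the 3 was called, and Atp5g1 overlapped between the groups. Atp5s, a factor linked to the stalk, was the member of the complex above 0, with 5.55 and 5.52 in DKO samples, against 5.47 and 5.48 in WT samples (0.061, adjusted p = 0.79).

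Per kilobase of transcript, the level is the mean rlog over the 4 samples minus the log2 of the transcript length in kilobases. Transcript length, here and below, is the median over a gene's annotated protein-coding transcripts. It can differ from the main transcript, as for Uqcrc1, with 533 bases against 1653 in its first listed transcript, and Ndufb2, with 2413 against 491. On this scale the highest members were Uqcrh (13.1), Cox4i1 (13.0), Atp5b (12.8), Atp5h of the stator stalk (12.5) and Cox5a (12.5). The lowest tested members were Ndufa4l2 (4.30), Cox4i2 (4.65), Cox7a1 (5.84), Atp5s (5.98), Atp5l of the membrane part (6.12) and Cox6b2 (6.23). Most alternative forms thus stood at the bottom of the order. Atp5l is uncertain there, since 86.8% of its transcript is matched by near-identical copies in 11 other genes, among which reads may have been split or dropped.

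Subunit transcripts are short, and short transcripts in general were lower in DKO samples. The median difference over the 2614 tested genes with transcripts under 1000 bases was -0.0814, and 7.35% of them fell. Between 500 and 1000 bases, 48 subunit genes had a median difference of -0.194, against -0.0789 for all 2266 tested genes of that length. At 1000 bases or more, 20 subunit genes had a median of -0.0962, against -0.00976 for all 10893. Across the 81 subunit genes, the correlation of log10 transcript length with the difference was 0.205 (Pearson) and 0.34 (Spearman), and across 13507 genes it was 0.206 and 0.238. In the 75 subunit genes with a mean of at least 6 it was 0.432 and 0.398. Genes share their libraries and are not independent replicates. With the trend on exonic length removed from every gene, the median of the subunits was -0.0758, 62 of 81 were below 0, 1 fell (Cox5a) and 3 rose (Cox6b2, Cox4i2 and Ndufa4l2). With the trend on transcript length removed instead, the median was -0.095, 66 were below 0, 1 fell (Ndufa2) and 2 rose. Over all tested genes, 3.98% fell in the fit on exonic length and 4.08% in that on transcript length. The medians by complex with the exonic length trend removed were -0.0906 for complex I, -0.0347 for II, -0.0776 for III, -0.0722 for IV and -0.0356 for V. With quantile normalization, which gives every sample the same distribution of values, 68 of the 81 members were below 0 and 3 fell, where 4.43% of all tested genes did.

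**Figure D4:**
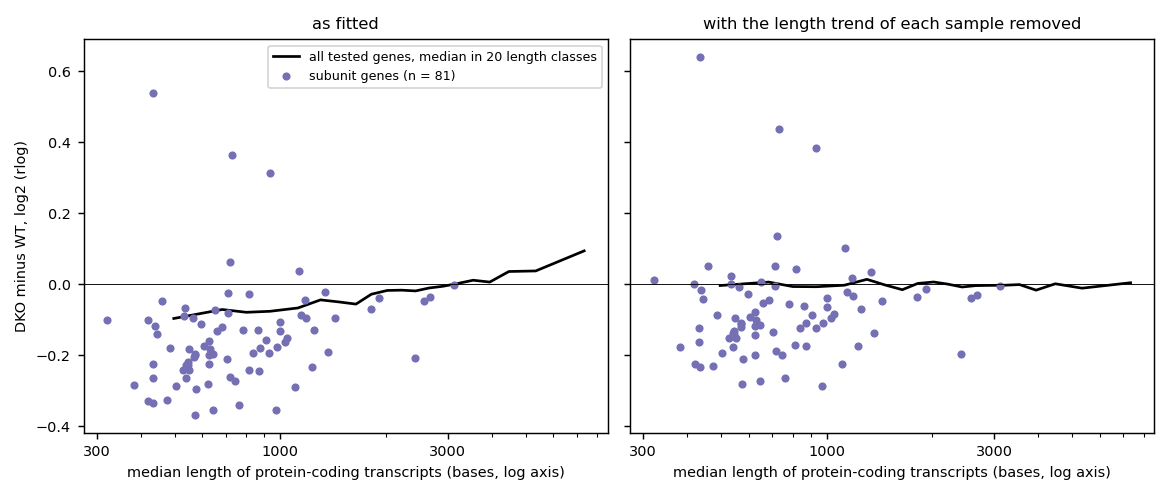
Difference between DKO and WT samples (DKO minus WT, rlog scale) against transcript length in bases on a log axis, for subunit genes and all tested genes. Subunit genes cluster at short lengths, where the median of all tested genes is also below 0, and the subunit medians lie lower (-0.194 against -0.0789 between 500 and 1000 bases).

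Many subunit genes have processed pseudogenes. Of the 81 tested members, 29 had a near-identical match in another annotated gene over at least 20% of the transcript. A match needed at least 95% identity over at least 50 bases. Counts of genes with copies elsewhere are uncertain. Both strands were searched and genes at the same place were kept in, so some matches are overlaps and not copies. Thus Ndufb6 overlaps Smim27 on the other strand over 39.0% of its exonic bases, the same share as its match. How many of the 29 are copies elsewhere was not determined. Among the genes that fell, those with such a match were Cox5a (42.0%), Ndufb3 (37.0%) and Cox7a2l (31.2%). Cox5a is matched by 1 gene, and its exons overlap Gm26631 on the other strand (12.8% of its exonic bases). The match is a share of a transcript of 645 bases and the overlap a share of 2101 exonic bases. The match of Cox5a may thus be this overlap and not a copy elsewhere. The median difference was -0.175 in the 29 genes with such matches and -0.179 in the 52 without, of which 5 fell and 2 rose. Of the 8 members not tested, 4 are annotated as processed pseudogenes (Ndufa11b, Ndufb4c, Ndufs6b and Cox6c2).

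Promoters were compared for the 65 tested members matched in the RefSeq table, over the same 250 bases. Nuclear respiratory factor 1 (NRF1) is a known activator of respiratory chain genes, and its motif, GCGCA followed by any base and then GCGC, stood in 13 of the 65, against 8.73% of tested genes and 4.23% of all promoters. The ETS motif CCGGAAG stood in 12 (18.5%, against 15.0% and 7.83%), the YY1 motif AAGATGGC in 1 (1.54%, against 2.38% and 1.83%), and CCAAT in 29 (44.6%, against 40.0% and 37.5%). Both strands were searched, and overlaps between motifs were allowed. The promoters below are shown for a pair of genes that fell (Ndufb3, plus strand, chr1:58586147-58586396, and Ndufa6, minus strand, chr15:82354292-82354541) and for a pair not called whose windows hold NRF1 motifs (Ndufb4, minus strand, chr16:37654369-37654618, and Sdhd, minus strand, chr9:50603850-50604099). They are printed as above, with NRF1, ETS and CCAAT matches in capitals.
Ndufb3: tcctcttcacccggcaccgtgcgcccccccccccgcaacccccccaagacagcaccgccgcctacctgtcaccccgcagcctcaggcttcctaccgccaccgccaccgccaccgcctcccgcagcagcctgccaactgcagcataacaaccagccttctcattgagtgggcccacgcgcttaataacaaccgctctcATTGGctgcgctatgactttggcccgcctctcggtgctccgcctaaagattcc
Ndufa6: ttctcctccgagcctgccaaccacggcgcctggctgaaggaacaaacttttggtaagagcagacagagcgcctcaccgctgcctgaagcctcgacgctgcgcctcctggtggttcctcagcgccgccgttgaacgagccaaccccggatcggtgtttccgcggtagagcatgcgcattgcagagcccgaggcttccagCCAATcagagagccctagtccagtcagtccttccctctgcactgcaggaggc
Ndufb4: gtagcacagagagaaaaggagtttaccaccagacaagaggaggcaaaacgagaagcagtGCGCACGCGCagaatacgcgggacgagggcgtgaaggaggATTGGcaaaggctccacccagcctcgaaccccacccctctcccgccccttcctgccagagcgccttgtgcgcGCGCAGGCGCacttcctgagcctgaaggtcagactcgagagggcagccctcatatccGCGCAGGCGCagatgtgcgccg
Sdhd: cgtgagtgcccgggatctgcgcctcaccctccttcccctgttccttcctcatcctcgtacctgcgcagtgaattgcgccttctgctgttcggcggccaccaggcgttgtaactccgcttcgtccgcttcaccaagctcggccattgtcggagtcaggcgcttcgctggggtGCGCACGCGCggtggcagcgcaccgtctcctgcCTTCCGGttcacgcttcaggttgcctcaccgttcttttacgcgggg
Of the 8 genes that fell, 5 had a promoter in the table, and 0 of those held the NRF1 or ETS letters while 3 held CCAAT (Ndufa6, Ndufb3 and Ndufc2). Since 13 and 12 of the 65 subunit promoters held the NRF1 and ETS letters, 5 promoters are too few to show a lack of either. The uncalled pair was picked for its NRF1 motifs, and its differences (Ndufb4 -0.35, Sdhd -0.23) were near those of the called pair (Ndufb3 -0.34, Ndufa6 -0.28). Whether the motifs go with the differences was not tested. A match in letters is a description and not a binding site.

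Respiratory chain genes outside the symbol rule were set beside the subunits. Subunits and an inhibitor with other names had small differences, with 0 calls in limma and 2 genes at an unadjusted p under 0.05: Cyc1, cytochrome c1 (-0.13), Ndufab1, the acyl carrier subunit of complex I (-0.10), Atpif1, the ATP synthase inhibitor (-0.20), and Usmg5 of the ATP synthase (-0.22). Of the 13 subunits encoded in mitochondrial DNA, 7 were tested and 0 were called in limma (0 at an unadjusted p under 0.05), with a median of 0.111. Their order of samples was another one, with DKO replicate 1 highest in all 7 and DKO replicate 2 lowest in 5. Thus mt-Co1, the catalytic subunit of complex IV, had 18.56 and 17.94 in DKO samples, against 17.95 and 18.36 in WT samples, and mt-Cytb of complex III had 17.07 and 16.39 in DKO samples, against 16.23 and 16.67 in WT samples. The groups overlapped in all 7 genes. The listed values of the other mitochondrial genes are low, with mt-Co3, mt-Atp8 and mt-Nd4l at 0, so the list is incomplete as a readout.

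Assembly factors showed few calls, where 4.85% of all tested genes fell and 9.92% rose. Of the 15 tested factors of complex I and the 5 of complex III 0 were called in limma (0 at an unadjusted p under 0.05), with medians of -0.0634 and -0.133. Of 4 for complex II, 2 fell: Sdhaf2, which helps insert the flavin (-0.29, adjusted p = 0.0321), and Sdhaf1, which serves the iron-sulfur subunit (-0.30, adjusted p = 0.0357). Of 19 for complex IV, 1 fell (5.26%, close to the share of all tested genes). It was Cox14 (-0.37, adjusted p = 0.0226), which acts on the newly made catalytic subunit. Of 3 for complex V, 0 were called (0 at an unadjusted p under 0.05, median -0.0681). Among 13 enzymes of the tricarboxylic acid cycle and 13 regulators of respiratory genes 0 were called in limma (2 in each list had an unadjusted p under 0.05), with medians of -0.0567 and -0.0388. Among 7 carriers and channels of the mitochondrial membranes 0 were called as well (3 unadjusted), with a median of -0.197. These counts change with single samples, and without DKO replicate 2 there were 3 falls among the factors of complex IV and 3 among the carriers, while without WT replicate 2 there were 0 among the factors of complexes II and IV.

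Ribosomal protein genes were set beside the subunits as other large families of short transcripts, and most of them were lower in DKO samples too. Of 83 tested genes for cytosolic ribosomal proteins, 82 were below 0, with a median of -0.231. WT replicate 2 was highest in 81 of them. In limma 2 fell (2.41%, against 4.85% of all tested genes): Fau (-0.41, adjusted p = 0.0172) and Rps16 (-0.35, adjusted p = 0.0375). Of 77 genes for mitochondrial ribosomal proteins, 72 were below 0, with a median of -0.122. In limma 1 fell (1.3%), Mrpl33 (-0.29, adjusted p = 0.0393). Like the share over all tested genes, these counts changed when 1 sample was left out. With the transcript length trend removed the medians were -0.159 for cytosolic ribosomal proteins, -0.0794 for mitochondrial ribosomal proteins and -0.095 for the subunits. Whether the subunits differ from these lists was not tested.

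**Figure D5:**
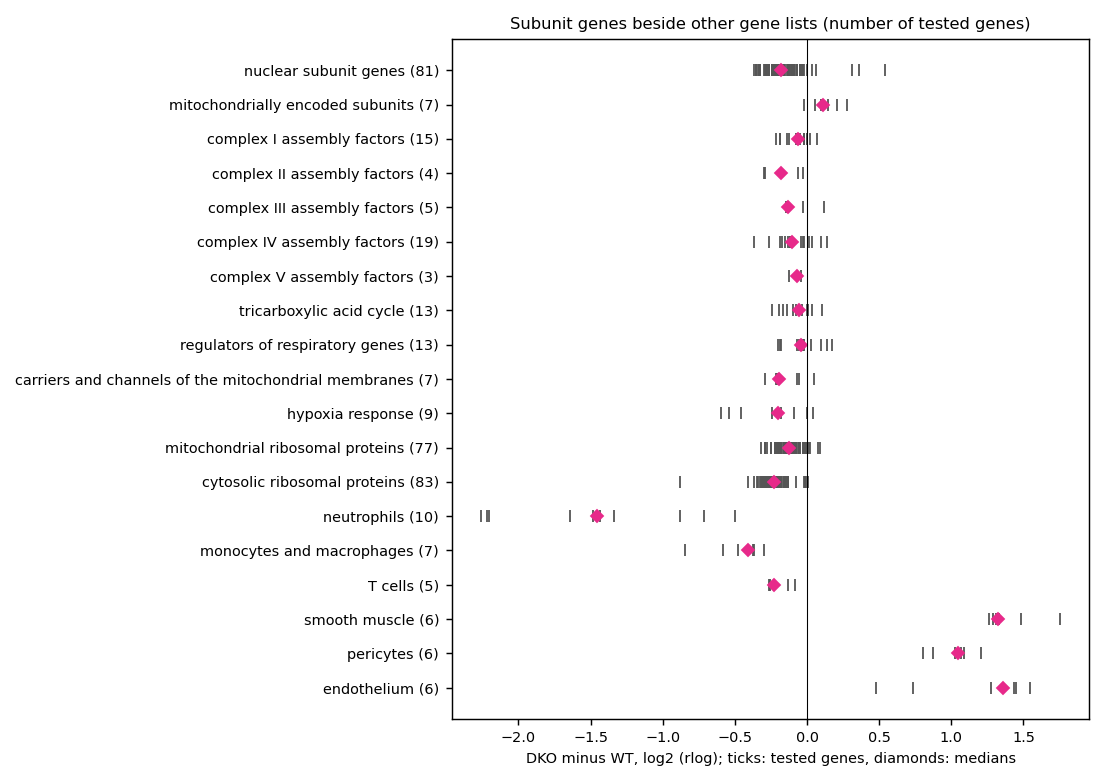
Differences between DKO and WT samples (DKO minus WT, rlog scale) of the genes in each list, with ticks for genes and diamonds for medians. Apart from the cell type markers, cytosolic ribosomal proteins have the median farthest below 0 (-0.231) of the plotted lists. Markers of neutrophils (-1.46) and of monocytes and macrophages (-0.409) have medians lower still. Of the 7 mitochondrially encoded subunits, 6 lie above 0 (median 0.111).

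Markers of several cell types moved beside the subunits, where 4.85% of all tested genes fell and 9.92% rose. All 10 neutrophil markers fell (log2 of the summed level 14.6 and 14.1 in DKO samples, against 15.7 and 15.8 in WT samples), and 6 of 7 markers of monocytes and macrophages fell (15.0 and 15.1 in DKO samples, against 15.6 and 15.6 in WT samples). All 6 fibroblast markers rose (15.6 and 15.4 in DKO samples, against 14.7 and 14.6 in WT samples), as did all 6 of endothelium (12.1 and 12.2 in DKO samples, against 11.4 and 11.2 in WT samples) and 3 of 4 of mast cells. Of the 5 T cell and 6 epithelial markers 0 were called in limma (3 and 1 had an unadjusted p under 0.05), with medians of -0.23 and -0.032, and the levels of the epithelial list were 13.7 and 13.7 in DKO samples, against 13.7 and 13.8 in WT samples. The 5 adipocyte markers were all below the level tested, with Lep at 0 in every sample. Of the 6 striated muscle markers 3 were tested and 0 were called in limma (1 had an unadjusted p under 0.05). Acta1 had 7.14 and 6.90 in DKO samples, against 6.93 and 7.04 in WT samples. Ckm had 5.12 and 5.70 in DKO samples, against 5.08 and 4.59 in WT samples (0.58, adjusted p = 0.0775). Myh4 was at 0 in every sample. The part of these cell types in the subunit differences was not tested.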

How the data were processed

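The authors deposited regularized log2 expression (rlog), as the table's name says, and the submitters' processing notes name DESeq2, which makes such values. For the build GRCm38, those notes list STAR 2.5.4a, BWA 0.7.14-r1136, Subread 1.5.2, featureCounts, cutadapt 1.9.1 and bcl2fastq 2.17.1.14. They give no role for each tool, no annotation release and no strand setting of the counting. The labels' protocols name stranded mRNA libraries. The table has 2 value columns that match no labelled sample, which were not used but may have entered the authors' shrinkage. Groups came from the treatment in the labels, and replicate numbers are names given in accession order, which pair nothing.

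Symbols, positions and transcripts came from GENCODE (48144 of 48526 identifiers matched). Values were 0 in all 4 samples for 23340 identifiers. Genes whose mean rlog reached 4 were tested with limma 3.58.1 in R 4.3.3, with group as the only term and variances moderated along their trend on the mean (2 residual and 8.9 prior degrees of freedom). Two-sided p-values were adjusted by Benjamini-Hochberg over all 13528 genes. Marker levels are the log2 of summed linear values. Near-identical matches were found with BLAST 2.17.0 on both strands, with genes that overlap a member kept in. Tables and figures used Python 3.11.15, pandas 2.3.3 and matplotlib 3.10.9. The fit was tested on simulated data, drawn as independent normal values with the spread that limma had fitted. That test did not cover shifts shared by many genes of a sample, so it does not bear on the calls here.

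The members, the gene lists and the tests were chosen with earlier results of these data known. Named with values are the called members, the members with the largest rise and fall of each complex, the forms of subunits with alternatives, a list of core subunits, and up to 3 called genes of each other list. Ndufb4, Ndufb7, Uqcr10, Cox7c, Atp5e and Atp5h, Tmco6, and the genes of the levels, copies and promoters, were named after their values were seen. Not every gene under that rule is reported here.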

Additional observations from a re-analysis of the deposited data

How the results depend on the processing

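There are 2 samples a group, the depth is unknown, and the shrinkage of rlog was not varied. The median over the subunits and those of the 5 complexes stayed below 0 in every alternative run. With sample weights 9 members fell (5.03% of all tested genes), against 8 as reported. The weights were equal within each group (0.823 in both DKO samples, 1.216 in both WT samples), so they did not weigh single replicates. With no minimum level, 0 members fell or rose in any complex (limma, 19 at an unadjusted p under 0.05, and 0.0993% of all genes fell). Without the variance trend 1 fell (3.82% of all tested genes), in complex I, and 0 in complexes III, IV and V. With quantile normalization 3 fell, 0 of them in complexes III, IV and V, and 1 rose, in complex IV. With the trend on exonic length removed 1 fell, in complex IV (0 in I, III and V), and the median was -0.076. With the trend on transcript length removed, an alternative chosen after the data were seen, 1 fell, in complex I (0 in III, IV and V), and the median was -0.095. At a threshold of 0.01, 0 fell in any complex (1.98% of all tested genes) and 1 rose, in complex IV. At 0.1, 16 fell (7.60% of all tested genes), with 3 in complex III, 4 in IV and 3 in V. With a minimum mean of 6, 0 rose, since Cox6b2 and Cox4i2 were not tested, and 0 fell in complex III and 1 in complex IV. With median centring 1 rose, in complex IV, and 2 fell in complex III. With robust variance estimates 2 fell in complex III and 2 in complex V. Without members that have near-identical matches in other genes, overlaps at the same place included, 5 fell, 0 of them in complex IV. This alternative was also chosen after the data were seen. Among the other lists, 2 falls in the complex II factors became 0 with no minimum, without the variance trend and with quantile normalization, and 1 with the exonic length trend removed. The 1 fall in the complex IV factors became 0 with no minimum and with either length trend removed. The 3 falls of the response to low oxygen became 0 with no minimum. In the tricarboxylic acid cycle 1 gene fell with median centring and with the exonic length trend removed, and 1 regulator with the transcript length trend removed. The 2 falls in cytosolic ribosomal proteins became 0 with no minimum, quantile normalization and the exonic length trend removed, 1 without the variance trend or the transcript length trend, and 4 with robust estimates. The 1 fall in mitochondrial ribosomal proteins became 0 with no minimum, without the variance trend and without the transcript length trend, and 2 with robust estimates. Leaving out 1 sample gave 0 to 33 falls in cytosolic and 0 to 7 in mitochondrial ribosomal proteins, 0 to 3 in the complex IV factors and the carriers, 0 to 2 in the complex II factors, and 0 to 1 in the tricarboxylic acid cycle, the subunits with other names and the mitochondrially encoded subunits. The cause of these changes was not tested, except where fewer genes were tested. Leaving out 1 sample gave 0 to 24 falls, with 0 to 10 in complex I, 0 to 3 in III, 0 to 7 in IV and 0 to 4 in V, and 1 to 2 rises, all in complex IV (1 to 2). The lone sample is then assumed to vary like the other group. Some genes changed sign. With quantile normalization these were Ndufa4 (0.012), Ndufa9 (0.033), Sdha (0.009), Sdhc (0.028), Uqcrc2 (0.031), Atp5a1 (0.088), Atp5b (0.131), Atp5j (0.042), Atp5s (-0.121) and Cycs (0.039). With the exonic length trend removed they were Ndufa1 (0.058), Ndufa4 (0.053), Ndufa5 (0.009), Ndufa8 (0.003), Ndufa9 (0.047), Ndufs5 (0.036), Sdhc (0.015), Uqcr11 (0.008), Uqcrb (0.065), Uqcrc2 (0.008), Cox7a1 (0.039), Atp5j (0.02), Atp5k (0.051) and Cycs (0.037). With the transcript length trend removed they were Ndufa1 (0.002), Ndufa4 (0.051), Ndufa9 (0.033), Ndufs1 (0.007), Sdhc (0.044), Uqcrb (0.023), Uqcrc1 (0.001), Uqcrc2 (0.017), Atp5j (0.051) and Atp5k (0.013). Leaving out 1 sample gave ranges across 0 for Ndufa4 (-0.108 to 0.012), Ndufa9 (-0.056 to 0.015), Ndufc1 (-0.292 to 0.033), Cox7a1 (-0.294 to 0.059), Atp5g1 (-0.092 to 0.02), Atp5j (-0.065 to 0.015), Atp5k (-0.206 to 0.005), Sdha (-0.169 to 0.032), Sdhc (-0.113 to 0.058), Uqcrc1 (-0.187 to 0.008), Uqcrc2 (-0.093 to 0.002), Atp5a1 (-0.13 to 0.038), Atp5b (-0.13 to 0.052) and Cycs (-0.056 to 0.053). No paired analysis was possible because the labels carry no replicate numbers.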
